A study of Mus musculus with 2 samples.

Results

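The matrix metalloproteinases (Mmp genes), the ADAMTS proteases (Adamts genes) and the tissue inhibitors of metalloproteinases (Timp genes) were followed in the lower jaw of the fetal mouse. The members were the genes whose symbol is one of these stems plus a number and which had a probe set annotated to that gene alone, with Mmp9 and Mmp20 left out. This gave 40 genes (18 Mmp, 18 Adamts and 4 Timp) of 19938 genes with such a probe set. They were read by 64 probe sets, with 1 probe set for 37 of them and several for Adamts3, Adamts9 and Adamts17. Mmp15 and Adamts2 carry matching symbols in RefSeq and are not analysed here. Total RNA of mandibles at E18.5, shortly before birth, was measured on 2 Affymetrix arrays. 1 array held a wild-type sample of BALB/c mice and the other a sample of BALB/c mice null for both Myf5 and MyoD (Myf5-/-:MyoD-/-), which lack the transcription factors that commit cells to skeletal muscle. The title of the series poses the question of the part that skeletal muscle plays in jaw development. How many fetuses a sample held is not stated in the labels, and since each genotype is a lone array, the genotypes cannot be tested against each other.

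The proteases of these families are zinc enzymes that cut the matrix outside cells. Mmp enzymes are made as inactive precursors that are opened by other proteases, and between them they cut collagens, gelatin and many other proteins. Adamts enzymes are secreted and bind the matrix through thrombospondin repeats. Some cut the proteoglycans aggrecan and versican, some trim the amino end of procollagens, and some act on microfibrils. Timp proteins block the active site of Mmp enzymes, and Timp3 also blocks several Adamts enzymes. In the growing jaw such enzymes clear hypertrophic cartilage, open bone to vessels and shape tooth and gland epithelium.

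Each value below is the deposited log2 signal of a probe set, and each difference is the double knockout minus the wild type on that log2 scale. Pairs of values give the wild type first and the double knockout after it. Measured genes are those that passed a floor, the median of all probe sets with 1 gene, on 1 or both arrays. The floors were 6.20 and 6.21. Where a gene passed it on 1 array only, the difference from the floor is a lower bound. The only spread these arrays hold is that between probe sets of the same gene. The differences given by the 2 brightest probe sets of a gene disagreed with an SD of 0.22 over 528 genes, and this leaves out variation between animals and between hybridisations. The median difference over the 10336 measured genes was 0.098, so a difference of that size is the middle of the arrays, and values after subtracting it are called centred. The targeted genes were lower in the double knockout, with Myod1 at 7.14 and 6.49 and Myf5 at 6.31 and 4.95. Myod1 stayed above the floor there and Myf5 was barely above it in the wild type, a bound of -0.11. Whether their probe sets lie in the deleted parts is not stated in the labels, so they are a weak check of them. All 8 skeletal muscle markers were under the floor in the knockout sample and lower by at least 2-fold, as were 2.74% of all measured genes.

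Of the 40 members, 22 were measured, 19 of them above the floor on both arrays and 3 on 1 array, and 18 lay below it on both. Among all genes 51.8% were measured. None of the 19 was 1.5-fold apart in either direction, and the bounds of the other 3 did not reach that fold, which leaves their true size unknown. Among all measured genes 5.11% were lower and 3.06% higher by that fold. At a smaller fold of 1.2, a threshold added after the values were seen, 6 of 22 members were higher (21.3% of all measured genes) and 0 of 22 were lower (11.3% of all measured genes). The 6 were the collagenase Mmp13, the furin-activated Mmp11, the membrane enzyme Mmp14, the procollagen protease Adamts3, the proteoglycan-cutting Adamts9 and the fibrillin-binding Adamts10. The absence of lower members depends on the scaling and the floor. After centring, Adamts1 was past 1.2-fold (0.26 in log2) on the lower side at -0.34, and Mmp14 was no longer past it at 0.17. Adamts20 and Adamts8, lower by 1.83-fold and 1.69-fold as deposited, entered this count only as bounds. By any amount, 15 of 22 members were higher in the double knockout, beside 66.9% of all measured genes. The direction of the 3 bounds is set by which array passed the floor. After centring, 12 of 22 were higher. The median difference was 0.19 over 6 measured Mmp genes, 0.10 over 13 Adamts genes and 0.080 over 3 Timp genes, and the centred Timp median was -0.018. The members as a whole sat near the middle of the arrays.

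**Figure D1:**
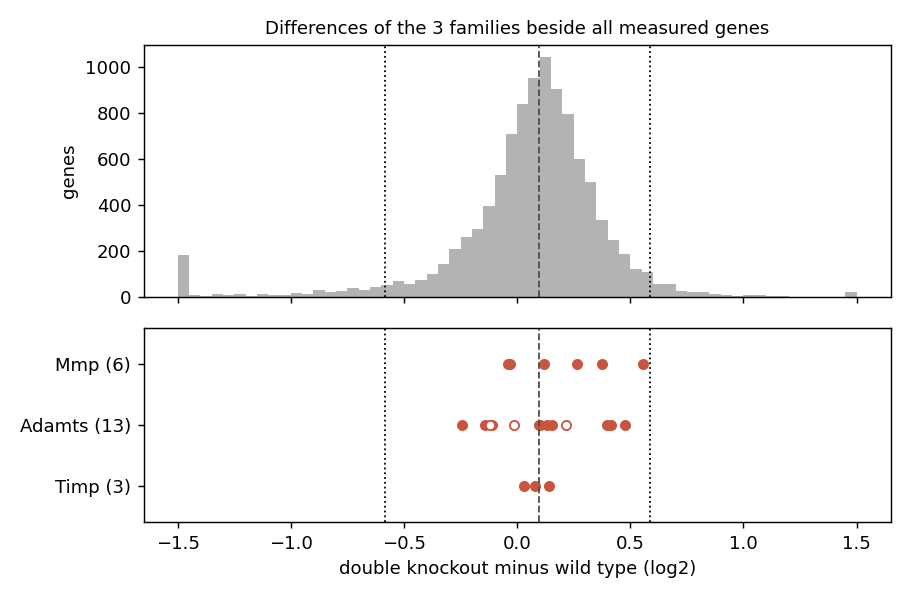
The upper panel counts all measured genes by their log2 difference (double knockout minus wild type), with genes beyond 1.5 units gathered in the end bars. The lower panel gives each measured Mmp, Adamts and Timp gene as a point, open where 1 side is at the floor. Dotted lines mark 1.5-fold and the dashed line the median of all measured genes, 0.098, and no plotted member lies beyond the dotted lines, where the 3 open points are bounds.

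The collagenases cut the triple helix of fibrillar collagens. Mmp13, the collagenase of hypertrophic chondrocytes and osteoblasts, had the largest difference of the members above the floor on both arrays, with 10.999 and 11.55. The difference of 0.55, or 1.47-fold higher, was 0.46 after centring. Mmp8, the collagenase that neutrophils store, lay far below the floor on both arrays at 3.40 and 3.06.

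Mmp13 opens a run of 10 Mmp genes that lie next to each other on chromosome 9 in RefSeq (GRCm38.p6). Of the 7 members in the run, Mmp13 alone was above the floor, and the other 6, Mmp12, Mmp3, Mmp10, Mmp8, Mmp27 and Mmp7, had values from 3.06 to 3.89. Upstream sequences of Mmp13 and of the stromelysin genes Mmp3 and Mmp10 are shown because 1 of these neighbours gave a bright probe set and the others a dark one while their upstream bases share short motifs. They end at the base before the annotated start, are written 5′ to 3′ on the plus strand of GRCm38.p6, and lie at chr9:7272364-7272513, chr9:7445722-7445821 and chr9:7502242-7502341. Capitals mark matches to the AP-1 motif TGAGTCA, the RUNX motif TGTGGT and the TATA motif TATAAA, each searched on both strands.
Mmp13: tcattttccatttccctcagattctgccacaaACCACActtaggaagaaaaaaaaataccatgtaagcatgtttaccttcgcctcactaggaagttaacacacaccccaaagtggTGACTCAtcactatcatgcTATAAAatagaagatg
Mmp3: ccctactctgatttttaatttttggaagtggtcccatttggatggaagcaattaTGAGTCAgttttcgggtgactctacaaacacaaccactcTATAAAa
Mmp10: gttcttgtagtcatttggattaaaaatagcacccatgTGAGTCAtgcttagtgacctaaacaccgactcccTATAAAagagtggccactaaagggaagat
The AP-1 match began 35 bases before the start in Mmp13, 46 in Mmp3 and 63 in Mmp10. A TATA match began 16, 7 and 29 bases before the start in the same order, and Mmp13 also held a RUNX match that began 118 bases before it. No marked match overlapped another. Over the 250 bases before each start, an AP-1 match was present in 5 of the 27 members with an entry in the table, Mmp3, Mmp7, Mmp10, Mmp12 and Mmp13, all of them in the run of neighbours. Counted by window, since a gene can have several starts, it was present in 5 of 30 windows of the members and in 4.46% of all 32851 windows. A TATA match was present in 6 of the 30 windows (12.4% of all) and a RUNX match in 5 (14.0% of all). The TATA matches were those of Adamts1, Mmp3, Mmp7, Mmp10, Mmp13 and Mmp21. The RUNX matches were those of Mmp7, Mmp13, Mmp14, Mmp23 and Mmp27. So Mmp7, which was below the floor on both arrays, held all 3 motifs as Mmp13 did. Mmp27, also dim and in the run, held the RUNX motif. A match of these letters is a description of the window and not a site.

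Genes known to act on Mmp13 were mixed. The list held Runx2, Fos, Fosl1, Jun, Mef2c and Hdac4, of which 3 were measured. Mef2c, a transcription factor of hypertrophic chondrocytes that skeletal muscle also makes, gave 10.05 and 9.05, a difference of -0.997. Jun, an AP-1 subunit, gave 8.89 and 8.60. Hdac4, a repressor of hypertrophy, gave 7.48 and 7.66. Fos and Fosl1, the partners of Jun in AP-1, were not measured, and Runx2 is not analysed here. The measured markers listed for the cells that make Mmp13 were higher beside it. In the hypertrophic cartilage list (Col10a1, Ihh, Pth1r and Panx3) 3 of 4 markers were measured. All 3 were higher, with a median difference of 0.47. The summed linear signal of all 4 was 1528 in the wild type and 2195 in the other sample. Its bright genes were Panx3 (9.89 and 10.49) and Pth1r (8.80 and 9.21). Col10a1 was dim, at 6.28 and 6.76 against floors of 6.20 and 6.21. Ihh was not measured, at 5.73 and 5.77. So the sum mainly reads Panx3 and Pth1r. Of 7 osteoblast markers 5 were measured and all 5 were higher, with a median of 0.40 and summed linear signals of 13471 and 16071. Markers of some other cells were higher too. Of 6 osteoclast markers 5 were measured and all 5 were higher, with a median of 0.93. The summed linear signals of all 6 were 5977 and 9137. The 4 tooth markers had a median of 0.33 and the 4 salivary gland markers one of 3.45, and all were higher. The remaining lists, with bounds included, did not share 1 direction. Fibroblast, endothelial and macrophage markers were each 2 higher and 2 lower. Measured cartilage markers were 2 higher and 1 lower, keratinocyte markers 3 and 1, and tendon markers 1 and 2. The 2 measured Schwann cell and nerve markers were higher, and the 1 measured neutrophil marker was lower. By any amount, 66.9% of all measured genes were higher. The part of these markers in the Mmp13 difference was not tested. In RNA of a whole tissue, more cells of a type and more RNA per cell cannot be told apart.

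The other measured Mmp genes act at the cell surface or are made by connective tissue cells. Mmp14, a transmembrane enzyme that cuts collagen at the cell surface and activates Mmp2, gave 10.41 and 10.68, a difference of 0.27. Its substrate Mmp2, the gelatinase of fibroblasts, gave 10.80 and 10.92, a difference of 0.12. Both were higher under each scaling tried, Mmp2 by 0.020 after centring. Mmp16, another transmembrane enzyme, gave 8.58 and 8.55. Mmp23, which is anchored by its amino end, gave 7.15 and 7.11. These 2 genes differed by -0.030 and -0.042, within the SD between probe sets. Mmp11, a stromelysin of mesenchyme that furin activates inside the cell, gave 7.46 and 7.84, which is 1.297-fold higher. With a floor at the upper quartile its difference was a bound of 0.15.

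**Figure D2:**
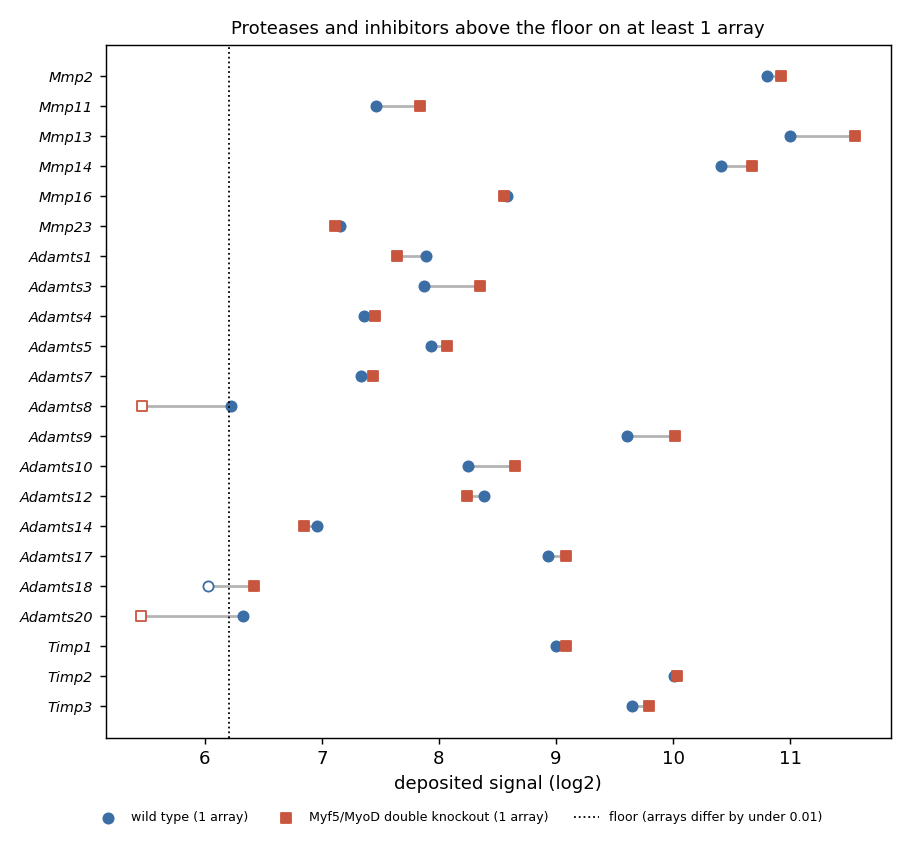
Deposited log2 signal on the wild-type array (circles) and the double-knockout array (squares) for the 22 measured members, 1 array per genotype, with open symbols below the floor and a dotted line at the floor. Mmp13, Adamts3, Adamts9, Adamts10 and Mmp11 lie to the right on the double-knockout array, and Adamts8 and Adamts20 cross to the left of the floor. The axis serves to compare the 2 arrays within a gene, not genes with each other.

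Of 18 Mmp genes, 12 gave no signal above the floor on either array, as did 9602 of all 19938 genes. The 12 such genes had deposited values from 3.06 to 6.14. They took in the stromelysins Mmp3 and Mmp10, the matrilysin Mmp7, the neutrophil collagenase Mmp8 and the macrophage elastase Mmp12. The membrane-anchored Mmp17, Mmp24 and Mmp25 were also among them, as were Mmp19, Mmp21, Mmp27 and Mmp28. Mmp28, an enzyme of epithelia, came closest, at 5.86 and 6.14. Mmp24, a transmembrane enzyme of the nervous system, gave 4.85 and 4.84. Mmp25, an enzyme of leukocytes, gave 4.49 and 4.62. A value below the floor does not show that a gene is off, and no fold is drawn from these genes.

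**Figure D3:**
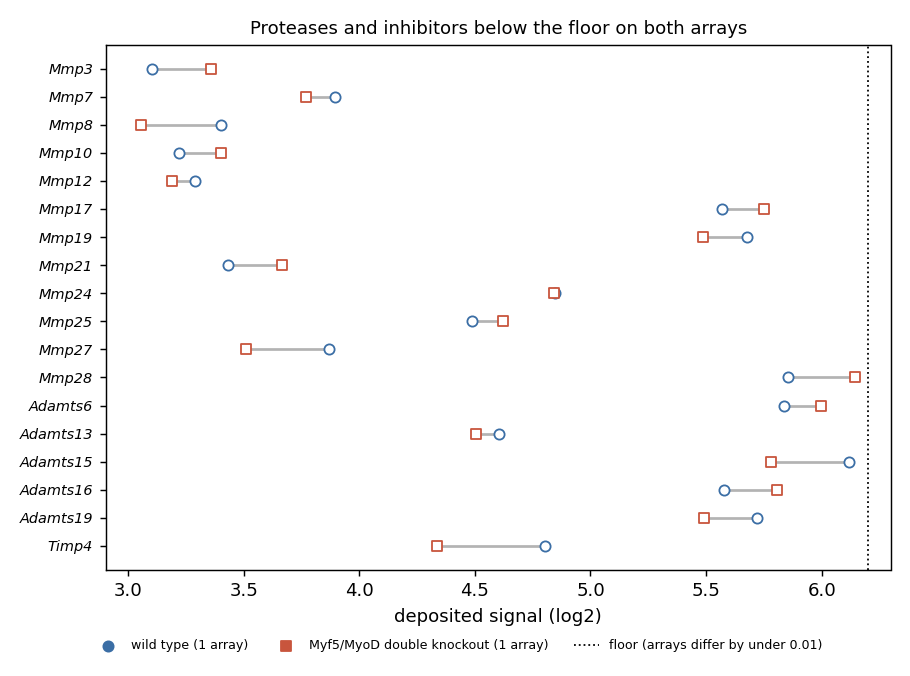
Deposited log2 signal on the wild-type array (circles) and the double-knockout array (squares) for the 18 members below the floor on both arrays, with a dotted line at the floor. The 6 dim members of the chromosome 9 run lie between 3.06 and 3.89, and Mmp28 and Adamts15 lie just below the floor.

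Among the Adamts genes that cut aggrecan and versican, 6 of 7 were measured. Adamts4 (not after centring), Adamts5 and Adamts9 were higher and Adamts1 lower with both values above the floor, while Adamts8 and Adamts20 passed it in the wild type alone and so could only come out lower. The median of the class has no settled sign, at 0.041 as deposited, -0.057 after centring and -0.24 when the floor stood at the lower quartile. Adamts9, which cuts versican and is made by vessels and mesenchyme, stood at the upper end. Its brightest probe set gave 9.60 and 10.02. All 6 of its probe sets were higher, by 0.33 to 0.58, with a mean of 0.44 ± 0.081 (SD over 6 probe sets of the same arrays), or 1.36-fold. Adamts1, made by endothelium and mesenchyme, stood at the lower end, with 7.89 and 7.64, a difference of -0.24. Its neighbour on chromosome 16, Adamts5, the chief aggrecanase of mouse cartilage, differed by 0.13 (7.93 and 8.07). The opposite signs of these adjacent genes held under both other scalings. Each was read by 1 probe set, the Adamts5 difference was smaller than the SD between probe sets (0.22), and that of Adamts1 was close to it. Adamts4, the second classic aggrecanase, gave 7.36 and 7.46, and its difference of 0.095 was -0.0024 after centring.

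Adamts20 and Adamts8 of this class were dim. Adamts20, known for its role in melanoblast spread through the skin and in palate closure, gave 6.33 and 5.46. Adamts8, an enzyme of lung and heart, gave 6.22 and 5.46. Both passed the floor on the wild-type array alone, so the floored differences are bounds of -0.12 and -0.014. The deposited values themselves were 1.83-fold and 1.69-fold lower, and these were the 2 members at least 1.5-fold apart when no floor was set (3.97% of all genes were lower by that fold) or when it stood at the lower quartile. Of 3059 genes with a wild-type signal within 0.5 of the floor, 4.41% were at least 1.5-fold lower by deposited values. Adamts15, the neighbour of Adamts8 on chromosome 9 and a versican-cutting enzyme known from myoblast fusion, lay just below the floor with 6.12 and 5.78. The summed linear signal of the 8 skeletal muscle markers went from 22743 to 276 beside these differences, and its part in them was not tested.

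Adamts3 and Adamts14 remove the amino propeptide of fibrillar procollagens, and Adamts3 also activates the lymphatic growth factor Vegfc. Adamts3 was the member read most often, by 16 probe sets, and all 16 were higher in the double knockout. The brightest gave 7.87 and 8.35, a difference of 0.48. The 8 that passed the floor on both arrays ran from 0.34 to 0.75 with a mean of 0.46 ± 0.13 (SD over 8 probe sets of the same arrays), or 1.38-fold. All 16 stayed higher after centring. Adamts14 ran the other way, with 6.96 and 6.85, a difference of -0.11.

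Adamts17, which is linked to fibrillin microfibrils, was read by 5 probe sets, all of them higher. The 4 that passed the floor on both arrays gave a mean difference of 0.29 ± 0.14 (SD over 4 probe sets of the same arrays), while the brightest, at 8.93 and 9.08, gave 0.15. Agreement within a gene is common on these arrays. Of 78 genes with at least 5 probe sets, all were higher in 28 (35.9%) and all lower in 13 (16.7%). After centring, all were higher in 14 (17.9%) and all lower in 26 (33.3%), and Adamts3, Adamts9 and Adamts17 were among the 14. Probe sets of a gene share the RNA of these 2 samples and are not replicates of a genotype.

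**Figure D4:**
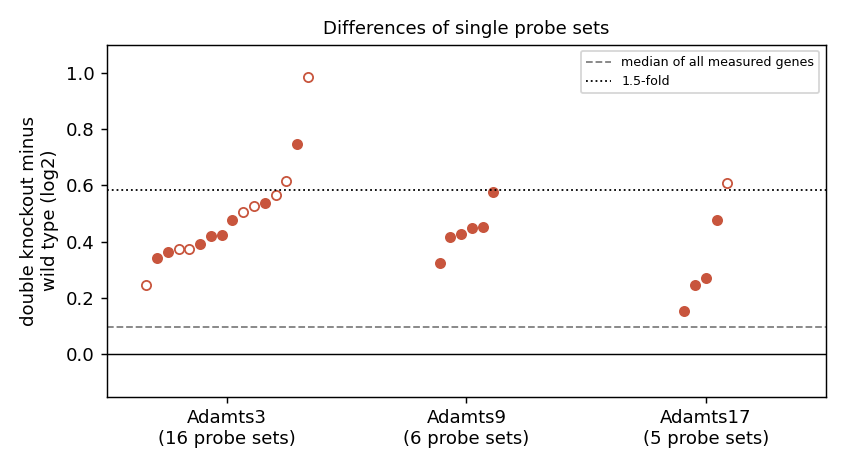
Log2 difference (double knockout minus wild type) of each probe set of Adamts3, Adamts9 and Adamts17, sorted within the gene, with open points where a value lies below the floor on at least 1 array. The dashed line is the median of all measured genes and the dotted line 1.5-fold. All 27 points lie above the dashed line.

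The remaining Adamts genes act on microfibrils, on cartilage oligomeric matrix protein (COMP) or on blood. Adamts10, which binds fibrillin and is mutated in a short-stature connective tissue disorder, gave 8.25 and 8.65, a difference of 0.40 or 1.32-fold. Adamts18 crossed the floor upwards, from 6.03 to 6.42, a bound of 0.22. A gene that passes the floor in the double knockout alone can only come out higher. Adamts7 and Adamts12, which cut COMP, differed by 0.10 (7.34 and 7.44) and -0.14 (8.38 and 8.24). Comp itself was not measured. Adamts6, Adamts16 and Adamts19 were not measured either, and neither was Adamts13, the plasma protease of von Willebrand factor that liver makes, at 4.61 and 4.51.

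The measured inhibitors differed little. Timp1 gave 9.004 and 9.08, Timp2 gave 10.004 and 10.03, and Timp3 gave 9.65 and 9.79. The differences of 0.080, 0.029 and 0.14 were each smaller than the SD between probe sets. After centring the signs of Timp1 and Timp2 turned (-0.018 and -0.069), and that of Timp2 also turned after quantile normalisation (-0.0073). Timp2 is the inhibitor through which Mmp14 captures pro-Mmp2, and these 3 genes differed by 0.029, 0.27 and 0.12. Timp4, the inhibitor typical of heart and striated muscle, lay below the floor on both arrays at 4.80 and 4.34. Timp1, Timp3 and Timp4 each lie within an intron of a synapsin gene, and the synapsins Syn1, Syn2 and Syn3 were all below the floor on both arrays.

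Sorted by the tissue in which each member is usually found, 13 of the 22 measured genes belonged to the skeletal and connective tissue groups. These 2 groups held 5 and 10 of the 40 members. All 5 members of the hypertrophic cartilage and bone group (Mmp13, Mmp14, Mmp16, Adamts4 and Timp1) were measured, 4 of them higher, with a median difference of 0.095. After centring, 2 were higher. Of 10 mesenchyme and fibroblast members 8 were measured, 5 of them higher, with a median of 0.073 (-0.025 after centring). The vessel group (Adamts1, Adamts9 and Adamts7) was measured in full and mixed, from -0.24 to 0.42. Of 10 members with another or a broad pattern 5 were measured, among them Adamts3 and Adamts10, with a median of 0.22, and 2 of the 5, Adamts18 and Adamts20, are bounds. In the epithelial, leukocyte and nervous system groups 0 of 9 members with a probe set were above the floor on either array. Among all genes 51.8% were above it on at least 1 array. Of the 3 striated muscle and heart members, Adamts8 passed the floor in the wild type, and none did so on the other array. Timp4 and Adamts15 were below it on both, so no direction is given for this group. Marker lists of some of these cell types were read beside the members. All 4 keratinocyte markers, all 4 macrophage markers and all 4 endothelial markers were above the floor on at least 1 array, against 1 of 4 neutrophil markers (Ngp, 6.34 and 4.83). The 2 samples also differed in marker levels of tissues to which no member is assigned, with all 4 salivary gland markers higher (median 3.45, summed linear signals of 658 and 7507). Of 4 tendon markers 3 were measured, with differences of -2.49 for Tnmd, -1.84 for Thbs4 and 0.10 for Mkx. The part of these markers in the differences of the members was not tested.

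The proteins that activate, hold or feed these proteases were taken from fixed lists. Among proprotein convertases, which cleave the precursors, 4 of 4 were measured and higher, by 0.073 to 0.31, beside 66.9% of all measured genes. After centring 3 of 4 were higher. Furin, the convertase that opens Mmp11 and Mmp14, gave 9.08 and 9.39, Pcsk5 6.77 and 6.94, and Pcsk7 6.55 and 6.70. Among other inhibitors, inducers and clearance receptors 6 were measured and all 6 were higher (5 after centring). The testican Spock2 gave 7.40 and 7.87 and the endocytic receptor Lrp1 differed by 0.20. Spock1, another testican, gave 6.07 and 6.67, and since it passed the floor in the double knockout alone it could only come out higher. The tolloid group holds proteases that remove the carboxyl propeptide of procollagen, and the enhancers Pcolce and Pcolce2, which are not proteases. Its 3 measured genes, the protease Bmp1 (10.33 and 10.62) and the 2 enhancers, were higher by 0.16 to 0.29. The other proteases of the group, Tll1 and Tll2, were below the floor on both arrays.

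With the floor applied, the measured partners that differed most were lower in the double knockout. Spock1, a bound, was 1.52-fold higher as deposited. A2m of the same list gave 5.36 and 6.13, below the floor on both arrays. Among all measured genes 5.11% were lower and 3.06% higher by at least 1.5-fold. Adamtsl4, an ADAMTS-like protein without protease activity that binds fibrillin-1, gave 7.37 and 6.64, 1.65-fold lower. Adamtsl5, a relative, gave 6.83 and 6.37, while Adamtsl1 gave 6.99 and 7.37. So 2 of 4 measured ADAMTS-like genes were higher and 2 lower. The plasminogen activator Plat, which makes plasmin, an activator of several Mmp precursors, gave 7.16 and 6.43, also 1.65-fold lower. Its relative Plau gave 6.79 and 6.54, and the receptor Plaur 6.37 and 6.42.

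Substrates were mixed. Of 5 fibrillar collagens, 3 were higher and 2 lower, with a median difference of 0.13 (0.033 after centring). Col2a1 of cartilage was 1.40-fold higher (8.77 and 9.26), and Col3a1 and Col5a1 of soft connective tissue differed by -0.27 and -0.21. Of the proteoglycan substrates and their link proteins, versican (Vcan) differed by 0.32 and the link protein Hapln1 by 0.35, against -0.32 for aggrecan (Acan). The brain proteoglycans Bcan and Ncan lay below the floor. The measured microfibril genes Ltbp1, Fbln1 and Fbn2 differed by -0.12, 0.10 and 0.018, and the sign of Fbn2 turned under both other scalings.

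**Figure D5:**
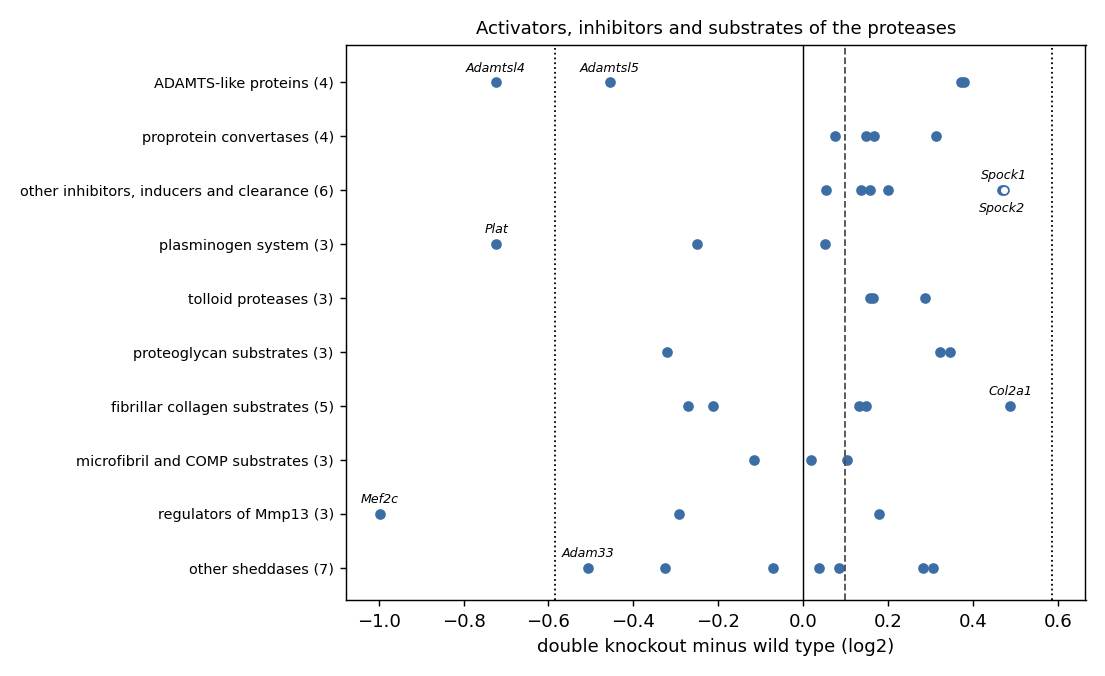
Log2 difference (double knockout minus wild type) of the measured genes in each fixed list of partners, with the number measured in brackets and an open point where 1 side is at the floor. Dotted lines mark 1.5-fold and the dashed line the median of all measured genes. Mef2c, Adamtsl4 and Plat are the 3 plotted genes beyond 1.5-fold, all lower in the double knockout. Among all measured genes 5.11% were lower and 3.06% higher by that fold. Spock1, plotted as a bound, was 1.52-fold higher as deposited.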

How the data were processed

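The authors deposited log2 values for 35557 probe sets on 2 arrays. Per the submitters' processing notes MAS5 was used, with no version; how background, scaling and logarithms were handled, and the genome build, are not stated there. That the base is 2 was read from the values, which reached 13.35. Biotin-labelled cRNA came from 6 µg of total RNA, per the labels' protocols. Gene names came from GEO's platform annotation, in which 21789 probe sets named 1 gene, 1621 several and 12147 none. No probe set of several genes named a member. All 40 members matched RefSeq (GRCm38.p6) by symbol and Entrez identifier. Where a gene had several probe sets, the brightest by mean linear signal stood for it, and the floor replaced any lower value before subtraction. Calculations used Python 3.11.15, numpy 2.4.6 and pandas 2.3.3 and were tested on simulated data. Upstream sequences came from a RefSeq table (GRCm38.p6). Every member is named, and of each partner list the genes at least 1.5-fold apart and up to 3 with the largest differences. The members and lists were chosen with earlier results of these data known, and tissues and roles are textbook knowledge. Alternatives were floors at the lower and upper quartile or none, centring, quantile normalisation, other folds, and a gene's median probe set value. The number of arrays limits the precision.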

Additional observations from a re-analysis of the deposited data

How the results depend on the processing

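Values of single members under the 6 alternative floors, scalings and probe set rules moved by less than the SD between probe sets in 120 of 125 cases. The other 5 were Adamts20 (-0.87) and Adamts8 (-0.76), each without a floor and with one at the lower quartile, and Mmp11 (0.15 with one at the upper quartile). All 5 are settings in which the floor itself was moved or removed, and the floor replaces any lower value before subtraction. The medians of the Mmp, Adamts and Timp genes moved by less than that SD under each alternative. Of 94 class and tissue medians under the alternatives, 87 moved by less than that SD and 7 by more. All 7 came with a moved or removed floor. Without a floor the striated muscle and heart median went from -0.014 to -0.47, and the collagenase median from 0.55 to 0.11. Members at least 1.5-fold lower numbered 2 without a floor and 2 with one at the lower quartile, against 0 otherwise, and 6 were higher at 1.2-fold. Over all genes, 528 were lower by at least 1.5-fold and 316 higher. An upper-quartile floor gave 263 lower and 140 higher, the 2-fold threshold 283 lower and 53 higher, the 3-fold threshold 160 lower and 18 higher, and the 1.2-fold threshold 1163 lower and 2206 higher. The higher genes numbered 505 without a floor and 185 after centring. The 1.2-fold threshold and a count without the muscle markers were added after seeing the data. No paired analysis was possible because each genotype has 1 array. Genes near the floor, such as Adamts8, can show only a small part of any loss.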

Other observations

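The ADAM sheddases, membrane-bound relatives of the Adamts proteases that cut proteins off the cell surface, were mixed. Of 8 listed genes 7 were measured, 4 of them higher and 3 lower, with a median difference of 0.037 (-0.061 after centring). Adam33 gave 7.03 (wild type) and 6.52 (double knockout), a difference of -0.51. Adam19 gave 7.82 and 7.49, a difference of -0.33. Adam10, the main sheddase of Notch receptors, gave 8.896 and 9.20, a difference of 0.304. No ADAM gene was 1.5-fold apart.

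Mmp1a and Mmp1b, the interstitial collagenase genes that carry a letter and so fall outside the members, lie within the chromosome 9 run. They lay below the floor on both arrays, Mmp1a at 3.03 and 2.91 and Mmp1b at 2.14 on both.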
